A study of Homo sapiens with 24 samples.

Results

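Vault RNAs are short, structured RNAs made by RNA polymerase III (Pol III) from genes whose promoter lies partly inside the transcript, in an A box and a B box, as in transfer RNA (tRNA) genes. The VTRNA1 genes encode the RNAs found in vault particles, large barrel-shaped ribonucleoproteins of the cytoplasm built mainly of major vault protein, and VTRNA1-1 also binds the autophagy receptor p62. VTRNA2-1, also called nc886, is known as an inhibitor of the kinase PKR and as the product of an imprinted gene rather than as a vault component. The rows taken were those of the small RNA table that are not typed lncRNA and whose first name starts with VTRNA. They were 4 of 175946 annotated non-coding features, namely VTRNA1-1, VTRNA1-2, VTRNA1-3 and VTRNA2-1, and the ATAC-seq windows on the same 4 genes were read with their flanks.

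The series profiled small RNA and, by ATAC-seq, open chromatin in HEK293, an established human embryonic kidney cell line, labelled wild type. Cells overexpressed eGFP (the control, GFP below), lamin A (LMNA), lamin B1 (LMNB1) or lamin B2 (LMNB2), the filament proteins under the inner nuclear membrane. Every group, the control included, therefore carried an overexpressed protein on a wild-type background, with 3 libraries per group and assay (24 in all). The labels do not say whether replicates came from separate cultures or how the proteins were delivered, so p-values measure the spread between these libraries, which may be technical. The series' title concerns Pol III activity and its links to chromatin organisation, and the comparisons asked whether vault RNA levels or accessibility differed between lamins and GFP.

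Small RNA totals were 132507051 to 195074742 counts per library over all features, and ATAC totals 156043245 to 290158229 over the feature windows. Features overlap, so totals exceed the number of reads. Levels below are CPM, the usual depth-scaled counts, with library sizes scaled by TMM (trimmed mean of M-values), divided by the interval length in kb. The TMM factors of the GFP small RNA libraries were 0.631, 0.905 and 1.31, and those of the LMNB2 libraries 1.06 to 1.16. The tables hold no protein-coding markers of HEK293. The 7 listed microRNAs abundant in this line summed to 78.7 to 339.8 CPM per library, and 11 listed microRNAs of liver, blood, muscle and neurons to 0.0184 to 0.0759 CPM, with MIR451A at 0.

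All 4 genes lie on chromosome 5 (GRCh38). VTRNA1-1 (140711276 to 140711373, 98 bases), VTRNA1-2 (140718926 to 140719013, 88 bases) and VTRNA1-3 (140726159 to 140726246, 88 bases) form a cluster on the plus strand between ZMAT2 and the protocadherin alpha genes, with starts 7650 and 7233 bp apart. VTRNA2-1 (136080491 to 136080598, 108 bases) is on the minus strand between TGFBI and SMAD5-AS1, 4631 kb from the cluster. These positions are RefSeq's. The counted intervals were 25 bp longer on each side for the VTRNA1 genes, and 19 and 24 bp longer for VTRNA2-1.

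Of the 4 symbols, 0 matched the RefSeq promoter table. LOC105378198, a RefSeq lncRNA that spans the VTRNA1 genes and is annotated to start at the same base as VTRNA1-1, has an entry, and it is printed because its last 50 bases are the first 50 of VTRNA1-1 and because it covers part of the ATAC window on that gene. The region is chr5:140711026-140711325, plus strand, GRCh38.p14, 5′ to 3′, and the capitals mark a TATAA match and a match to the A box.
LOC105378198 promoter: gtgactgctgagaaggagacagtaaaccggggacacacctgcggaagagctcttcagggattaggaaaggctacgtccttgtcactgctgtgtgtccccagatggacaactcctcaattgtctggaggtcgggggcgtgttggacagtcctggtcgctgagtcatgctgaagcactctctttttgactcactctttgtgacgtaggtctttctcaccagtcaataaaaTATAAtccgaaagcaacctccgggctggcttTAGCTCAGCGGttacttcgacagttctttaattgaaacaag
The TATAA match is at positions -22 to -18 from the start, and the A box match at positions 10 to 20 of VTRNA1-1. Searched on both strands, TATAA occurs in 20.4% and the A box in 31.7% of the 35116 RefSeq promoters of this length. A B-box core, GTTCNANNC, was found in 7.48% of them and 0 times here, where the window ends before the rest of the gene. The matches are descriptions of the letters and not of factor binding, and they do not overlap each other.

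The 4 vault RNAs differed widely in small RNA level. In GFP, VTRNA1-2 had 6703 ± 817 CPM per kb (SD, n = 3), VTRNA2-1 had 4871 ± 997, VTRNA1-1 had 352 ± 105 and VTRNA1-3 had 18.6 ± 5.44. Ranked per kb among the 20723 features that are not lncRNA, they stood at places 16, 23, 248 and 902. The order was the same in each of the 12 libraries. VTRNA1-2 exceeded VTRNA1-1 by at least 15.0-fold (median 17.4-fold) and VTRNA1-3 by 253-fold to 467-fold within a library, all per kb. VTRNA1-2 was also above VTRNA2-1 in every library, but by as little as 0.08 on the log2 scale in GFP replicate 2. Of the counts on the 4 genes, VTRNA1-2 took 47.8% to 64.9%, VTRNA2-1 30.9% to 49.6%, VTRNA1-1 2.50% to 4.17% and VTRNA1-3 0.102% to 0.245%. The VTRNA1 genes resemble each other in sequence, and how reads matching several of them were counted is not given in the sources used here, so the split among them is uncertain to that extent.

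**Figure D1:**
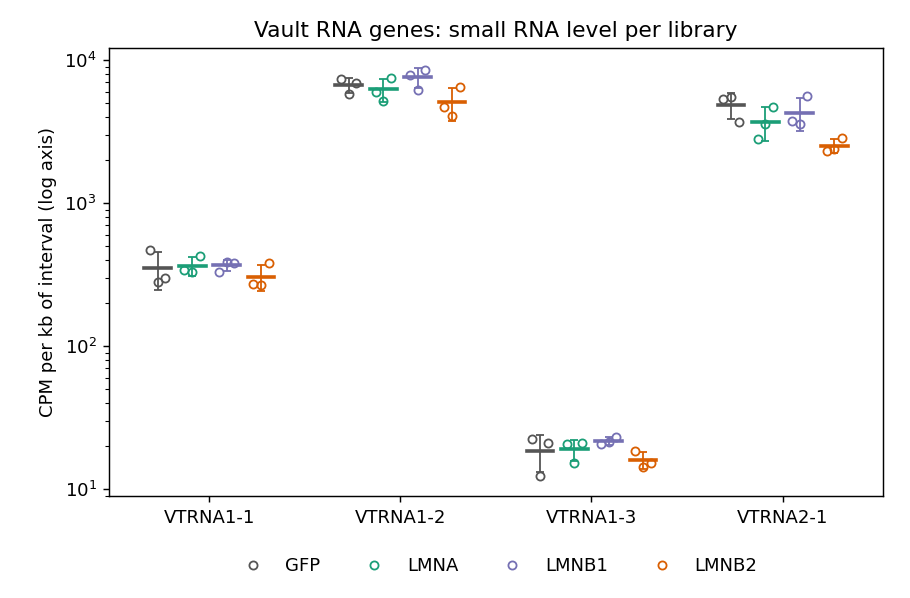
Small RNA level of each vault RNA gene in CPM per kb of interval (log axis), by group. Open circles are single libraries, short lines are group means and bars are SDs (n = 3). The genes keep their order in all 12 libraries, and the LMNB2 circles of VTRNA2-1 lie below its GFP circles.

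Nearby features held few counts of their own. VTRNA1-1 lies inside an interval of lnc-HARS-1 (140708671 to 140711537), annotated on the opposite strand, which held 5700 to 10849 counts per library against 5690 to 10839 for VTRNA1-1. The same reads were thus counted at both, and strand did not separate them. VTRNA2-1 overlapped no other feature, and its neighbours HSALNG0045075 and lnc-SMAD5-5 had 0 and at most 1 count. Beyond VTRNA1-3, a 5S rRNA-related feature had 0 to 3 counts per library.

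VTRNA2-1 had its lowest mean small RNA level in the LMNB2 group. Its GFP libraries had 5393, 5498 and 3721 CPM per kb and its LMNB2 libraries 2336, 2376 and 2842, so each LMNB2 library lay below each GFP library. The LMNA libraries had 2813, 3566 and 4736 and the LMNB1 libraries 3755, 3571 and 5577, and both groups overlapped GFP. The LMNA group also overlapped LMNB2, since its lowest library lay below the highest LMNB2 library. The group mean was 4871 ± 997 (SD, n = 3) for GFP, 3705 ± 969 for LMNA, 4301 ± 1109 for LMNB1 and 2518 ± 282 for LMNB2.

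The log2 fold change of VTRNA2-1 in LMNB2 against GFP was -0.95 ± 0.28 (SE), with a 95% interval of -1.54 to -0.36, a p of 0.00322 and an adjusted p of 0.0745 (quasi-likelihood test of edgeR, Benjamini-Hochberg adjustment over 33893 features). It did not pass the threshold of 0.05, so 0 of 4 vault RNAs were called in this comparison, where 2.66% of all features were. VTRNA2-1 was the only vault RNA whose LMNB2 and GFP libraries did not overlap, a separation in this direction that 10.2% of all features showed. The call depended on the libraries and the test: the edgeR adjusted p was 0.0481 without GFP replicate 1, 0.00867 without GFP replicate 3 and 0.0138 with no count filter, it was 0.0125 by DESeq2, and over all alternatives it ran from 0.00867 to 0.252. The fold change stayed between -1.07 and -0.67 in all of them.

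The spread of the GFP scaling factors was not tested as a part of this difference. As a share of the counts on features that are not lncRNA, which uses no scaling factor, VTRNA2-1 made up 0.380%, 0.485% and 0.357% in GFP and 0.186%, 0.185% and 0.214% in LMNB2. The shares were 0.220%, 0.287% and 0.371% in LMNA and 0.334%, 0.300% and 0.482% in LMNB1. On this scale the 3 LMNB2 libraries were the lowest of all 12. Scaled by total counts alone, the log2 fold change of VTRNA2-1 in LMNB2 against GFP was -0.67, beside -0.95 with TMM.

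In LMNA the log2 fold change of VTRNA2-1 was -0.39 ± 0.28 (SE, edgeR adjusted p of 0.91) and in LMNB1 -0.18 ± 0.28 (0.934). The 95% intervals were -0.98 to 0.19 and -0.76 to 0.40. The 3 lamin comparisons share the GFP libraries. Directly between lamins, VTRNA2-1 was at -0.77 ± 0.28 in LMNB2 against LMNB1 (p of 0.0127, adjusted p of 0.173 by edgeR), with no overlap of the libraries, a separation in this direction seen for 14.1% of features, and at -0.56 ± 0.28 against LMNA (adjusted p of 0.329). A joint edgeR test of the 3 lamins gave a p of 0.0376 and an adjusted p of 0.284 for VTRNA2-1, so a difference among lamins was not shown after adjustment. That test called 0 of 4 vault RNAs and 1.93% of all features.

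VTRNA1-2, the most abundant of the vault RNAs, had 7380, 5796 and 6934 CPM per kb in GFP and 4672, 4044 and 6544 in LMNB2. The highest LMNB2 library exceeded the lowest GFP library. Its LMNA libraries had 5990, 5224 and 7520 and its LMNB1 libraries 7926, 6223 and 8572, both overlapping GFP. The log2 fold changes against GFP were -0.10 ± 0.27 in LMNA, 0.18 ± 0.27 in LMNB1 and -0.40 ± 0.27 in LMNB2 (SE), with edgeR adjusted p-values of 0.986, 0.933 and 0.423. The LMNB2 interval, -0.96 to 0.16, does not exclude a decrease of the size seen for VTRNA2-1. Between LMNB2 and LMNB1 the difference was -0.57 ± 0.27 (p of 0.0453, adjusted p of 0.298 by edgeR).

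VTRNA1-1, the vault RNA bound by p62, had 473, 283 and 299.8 CPM per kb for GFP, 340.5, 328 and 428 for LMNA, 331, 391 and 385 for LMNB1 and 271, 270.1 and 381 for LMNB2. All lamin groups overlapped GFP, whose first library was the highest of the 12. The log2 fold changes were 0.06, 0.07 and -0.19 in LMNA, LMNB1 and LMNB2, each with an SE of 0.25 and edgeR adjusted p-values of 0.994, 0.966 and 0.707.

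VTRNA1-3, the least abundant, had 233 to 556 counts per library. Its levels were 22.4, 12.4 and 21.1 CPM per kb for GFP, 20.8, 15.4 and 21.0 for LMNA, 20.9, 21.3 and 23.4 for LMNB1 and 18.4, 14.4 and 15.2 for LMNB2. Each lamin group overlapped GFP, and GFP replicate 2 was the lowest library. The LMNB2 libraries all lay below the LMNB1 libraries, as 14.1% of features did, with a log2 difference of -0.45 ± 0.22 (edgeR adjusted p of 0.325). Against GFP the log2 fold changes were 0.03, 0.23 and -0.22 in LMNA, LMNB1 and LMNB2, with SEs of 0.22 and edgeR adjusted p-values of 0.996, 0.89 and 0.616.

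In all, 0 of 4 vault RNAs were called in LMNA, where 0% of features were, and 0 of 4 in LMNB1, where 0.0384% of features were (edgeR). None had an unadjusted p under 0.05 in these comparisons, against 5.46% and 5.51% of all features, and DESeq2 also called 0. In LMNB2 the unadjusted p was under 0.05 for VTRNA2-1 alone, against 19.9% of all features. The median log2 fold change of the 4 genes was -0.04 in LMNA, 0.12 in LMNB1 and -0.31 in LMNB2, beside -0.05, -0.05 and -0.04 over all features. Scaling by total counts alone moved the LMNB2 median of all features to 0.19, and VTRNA1-1 and VTRNA1-3 then had 0.10 and 0.01, VTRNA1-2 -0.17 and VTRNA2-1 -0.67. Between lamins 0 of 4 were called in LMNB1 against LMNA (0.0118% of features), LMNB2 against LMNA (2.01%) and LMNB2 against LMNB1 (2.19%).

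**Figure D2:**
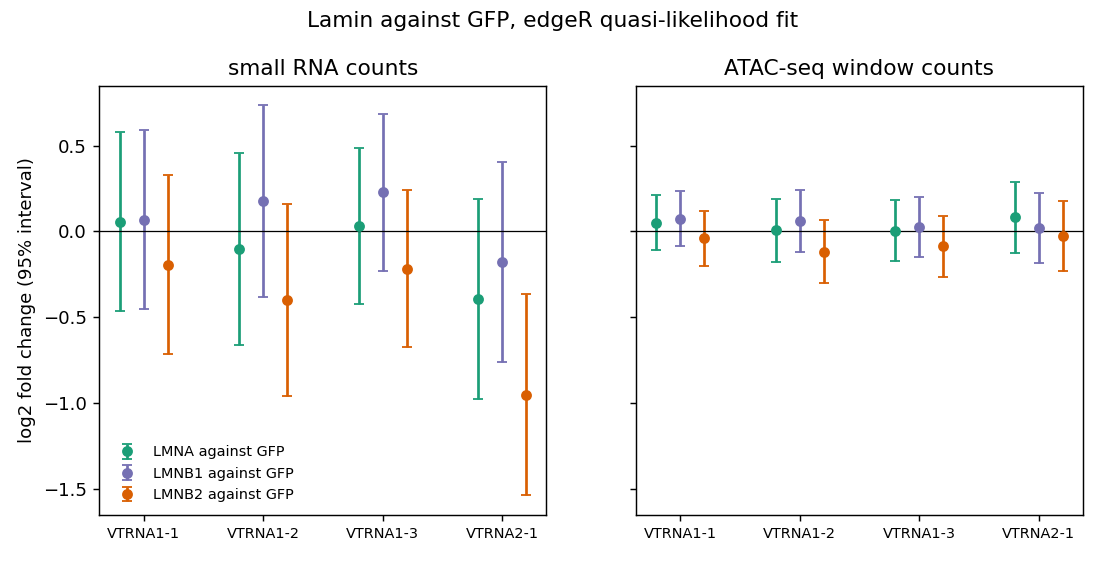
Log2 fold change of each vault RNA gene in LMNA, LMNB1 and LMNB2 against GFP, for small RNA counts (left) and ATAC-seq window counts (right). Points are edgeR estimates and bars their 95% intervals. The small RNA interval of VTRNA2-1 in LMNB2, -1.54 to -0.36, is the only one of the 24 that excludes 0.

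Each VTRNA1 gene was then set against VTRNA2-1 within a library, where scaling cancels. The log2 ratio of VTRNA1-1 to VTRNA2-1 per base averaged -3.81 ± 0.41 (SD, n = 3) for GFP, -3.32 ± 0.24 for LMNA, -3.52 ± 0.33 for LMNB1 and -3.05 ± 0.13 for LMNB2. The LMNA and LMNB2 libraries all lay above the GFP libraries for this pair. How often other ratios separated in this way was not counted. An exact permutation test over the 4 groups gave a p of 0.0654, or 0.196 adjusted over the 3 ratios. For VTRNA1-2 the means were 0.48 ± 0.41, 0.77 ± 0.28, 0.83 ± 0.23 and 0.99 ± 0.22 in GFP, LMNA, LMNB1 and LMNB2, and each lamin overlapped GFP (exact permutation adjusted p of 0.284). For VTRNA1-3 they were -8.05 ± 0.68, -7.58 ± 0.44, -7.59 ± 0.27 and -7.30 ± 0.29, again overlapping (exact permutation adjusted p of 0.284). The mean of each ratio was highest in LMNB2, but 0 of the 3 passed the exact permutation test over the 4 groups after adjustment. All 3 ratios share VTRNA2-1 as the denominator, so they are not independent observations. Summed counts of the 3 VTRNA1 genes were 1.02 to 1.79 times those of VTRNA2-1 in GFP, 1.43 to 2.07 times in LMNA, 1.48 to 2.02 times in LMNB1 and 1.67 to 2.24 times in LMNB2, so that each lamin overlapped GFP and the other lamins.

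**Figure D3:**
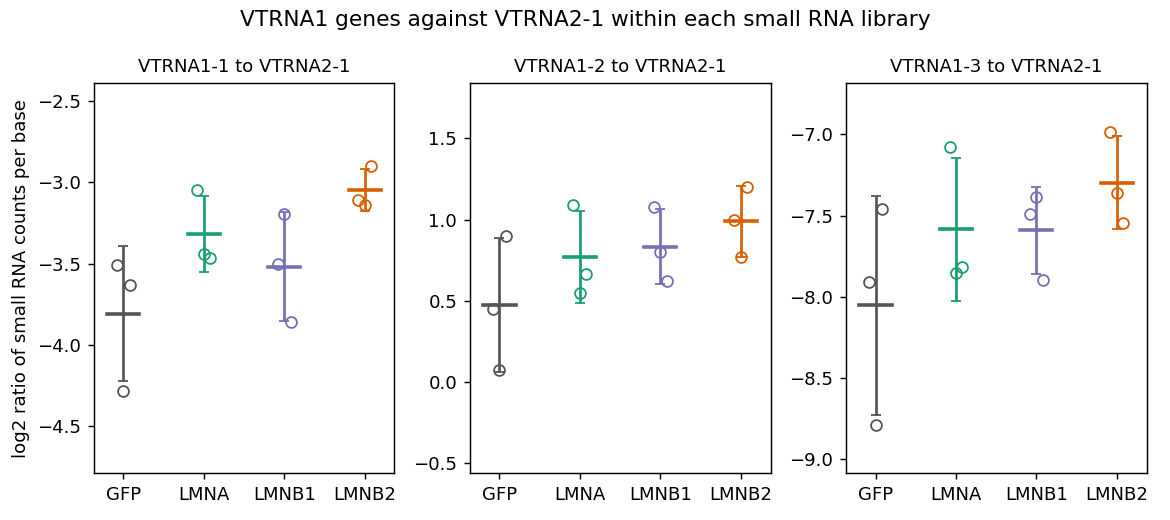
Log2 ratio of each VTRNA1 gene to VTRNA2-1 in small RNA counts per base, one panel per gene, each with an axis of equal span. Circles are libraries, lines are group means and bars are SDs (n = 3). The LMNB2 mean is the highest in each panel, and the LMNB2 and GFP circles separate for VTRNA1-1 and overlap for VTRNA1-2 and VTRNA1-3.

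In ATAC-seq, which counts transposase cuts in open DNA, the 4 genes were close to each other in spite of their RNA levels. In GFP their windows, 388 to 401 bp long, held 15.1 ± 1.91 CPM per kb (SD, n = 3) at VTRNA1-2, 13.4 ± 0.939 at VTRNA1-3, 13.0 ± 0.924 at VTRNA1-1 and 11.6 ± 1.64 at VTRNA2-1. These densities were 121 to 158 times the median of all feature windows, 0.0954 CPM per kb, and ranked 209, 252, 260 and 299 among the 20723 windows on features that are not lncRNA. The VTRNA1-2 window was thus 1.04-fold to 1.19-fold as dense as that of VTRNA1-3 within an ATAC library, while its RNA was 253-fold to 467-fold higher within a small RNA library. VTRNA1-2 was the densest and VTRNA2-1 the least dense of the 4 in every ATAC library. VTRNA1-1 and VTRNA1-3 had no fixed order, with a ratio of 0.948 to 1.11.

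**Figure D4:**
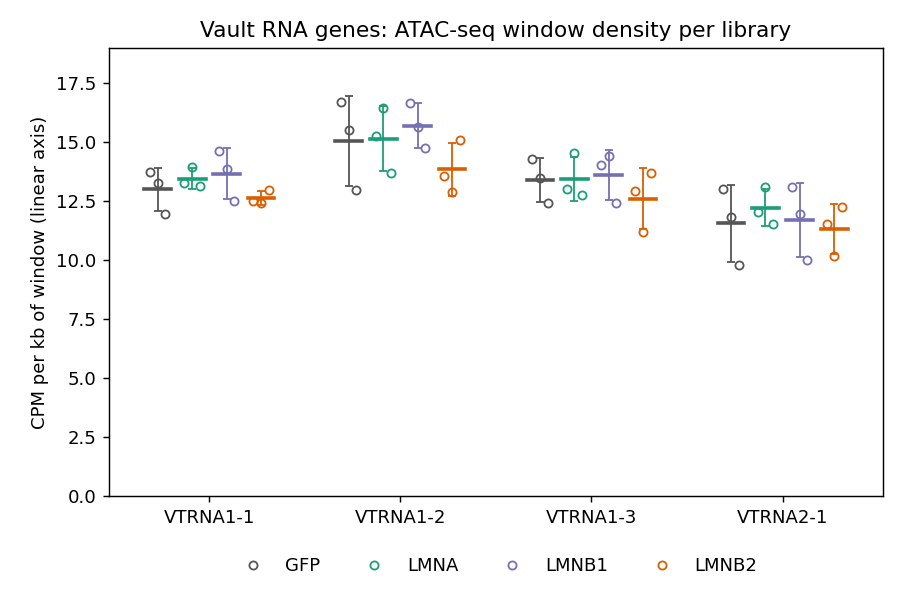
ATAC-seq density of the window on each vault RNA gene in CPM per kb (linear axis from 0), by group. Open circles are single libraries, short lines are group means and bars are SDs (n = 3). All values lie between 9.80 and 16.7, and the groups overlap for each gene in each comparison with GFP.

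The 6 other features typed as vault RNA had lower ATAC densities. The feature over the pseudogene VTRNA3-1P on chromosome X (53462184 to 53462335) had 0.162 ± 0.139 CPM per kb in GFP ATAC libraries (n = 3), and that over VTRNA2-2P on chromosome 2 (65555407 to 65555559) 0.254 ± 0.103. In small RNA VTRNA2-2P had 0 or 1 count per library, while VTRNA3-1P had 24 to 142. Features carrying only the Rfam vault family name, RF00006, lie on chromosomes 2 and 17. They had at most 4 small RNA counts per library, and 0.0521 to 0.115 CPM per kb in the GFP ATAC libraries.

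Among the intervals measured around each gene, density was highest in the gene window. Relative to flanks of 5 kb on each side, which start 350 bp outside the window, the window was 40.9-fold to 48.7-fold denser at VTRNA1-1, 56.8-fold to 89.3-fold at VTRNA1-2, 64.8-fold to 116-fold at VTRNA1-3 and 40.1-fold to 62.4-fold at VTRNA2-1, over the 12 libraries. The flanks were not alike on both sides. At VTRNA1-1 the 500 bp flank upstream averaged 3.06 CPM per kb, with 258 to 488 counts, and the one downstream 0.0559, with 1 to 13 counts. At the other genes the 500 bp flanks averaged 0.531 upstream and 0.355 downstream of VTRNA1-2, 0.795 and 0.329 at VTRNA1-3, and 0.689 and 0.197 at VTRNA2-1. The mean density of the 500 bp flanks was thus higher upstream than downstream at each of the 4 genes. This order did not hold at all distances: the 5 kb flanks of VTRNA1-2 averaged 0.148 upstream and 0.261 downstream, and the 50 kb flanks of VTRNA2-1 0.129 and 0.216. The 50 kb flanks of the VTRNA1 genes hold the other members of the cluster, so they do not describe separate chromatin.

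**Figure D5:**
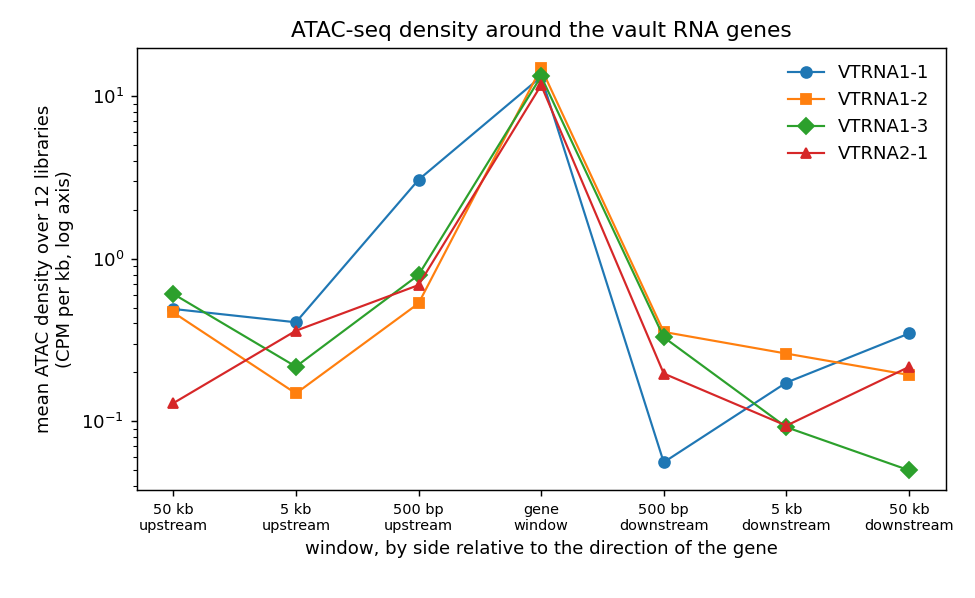
Mean ATAC-seq density over 12 libraries (CPM per kb, log axis) in the window on each vault RNA gene and in its 500 bp, 5 kb and 50 kb flanks, ordered along the direction of the gene, with nested flanks. Density peaks at the gene window for all 4 genes, at 11.7 to 14.9, and the 500 bp upstream flank of VTRNA1-1 (3.06) stands above those of the other genes.

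None of these windows passed the test for a difference between a lamin and GFP (0 called by edgeR or DESeq2). VTRNA1-2 had 16.7, 15.5 and 13.0 CPM per kb in the GFP ATAC libraries, 15.3, 16.5 and 13.7 for LMNA, 16.7, 15.7 and 14.8 for LMNB1 and 13.6, 12.9 and 15.1 for LMNB2, with all groups overlapping GFP. Its log2 fold change in LMNB2, the furthest from 0 among the 12 lamin comparisons, was -0.12 ± 0.09 (SE), with a 95% interval of -0.30 to 0.06 (edgeR adjusted p of 0.923). VTRNA2-1 had 13.0, 11.8 and 9.80 CPM per kb in GFP and 11.5, 10.2 and 12.3 in LMNB2, a log2 fold change of -0.03 ± 0.10 with an interval of -0.23 to 0.18 (edgeR adjusted p of 0.986). The small RNA estimate for the same gene was -0.95, but log2 changes of window density and of RNA level are not on a common scale. A link between them was not tested. In LMNA the VTRNA2-1 window was at 0.08 ± 0.10 and in LMNB1 at 0.02 ± 0.10 (edgeR adjusted p of 0.993 and 0.998).

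For VTRNA1-1 and VTRNA1-3 the ATAC log2 fold changes ran from -0.09 to 0.07, and the 95% intervals of all 12 comparisons from -0.30 to 0.29. The edgeR test called 0 of 4 windows in LMNA, LMNB1 and LMNB2, where 0.000611%, 0.00305% and 0.00244% of all windows were called. An unadjusted p under 0.05 was reached by 0 of 4 in each, against 5.19%, 4.78% and 5.72% of all windows, and DESeq2 called 0. The joint test of the 3 lamins also called 0 of 4 (0.0916% of all windows). LMNB2 libraries lay below LMNA libraries at VTRNA1-1, without overlap (-0.09 ± 0.08, edgeR adjusted p of 0.85), as 8.49% of windows did. The largest difference between lamins was at VTRNA1-2 in LMNB2 against LMNB1, -0.18 ± 0.09 with a 95% interval of -0.36 to -0.0015, overlapping libraries, a p of 0.0482 and an adjusted p of 0.975 (edgeR). The mitochondrial share of ATAC counts was 39.9% to 47.5% in GFP and 24.5% to 30.7% in LMNB2. With the mitochondrial chromosome left out, 0 of 4 windows were called in each comparison.

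Within ATAC libraries the ratios of the VTRNA1 windows to VTRNA2-1 did not pass the test. The log2 ratio of VTRNA1-2 averaged 0.38 ± 0.02 for GFP, 0.31 ± 0.05 for LMNA, 0.43 ± 0.11 for LMNB1 and 0.29 ± 0.06 for LMNB2 (SD, n = 3; exact permutation adjusted p of 0.242). The LMNA and LMNB2 libraries lay below the GFP libraries here, by less than 0.1 on average, and how often other ratios did so was not counted. Without LMNB1 replicate 1 the adjusted p of the same exact permutation test was 0.0477. The ratios of VTRNA1-1 and VTRNA1-3 both had an adjusted p of 0.666. The ratio of window to 5 kb flank had exact permutation adjusted p-values of 0.712 at VTRNA1-1 and 0.988 at the other 3 genes.

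Other Pol III transcripts were read beside the vault RNAs. A list of single genes and small families (7SL, 7SK, RMRP, RPPH1, Y RNA, U6, U6atac and BC200) matched 21 features, all tested. In small RNA 0 of 21 were called in any lamin against GFP, and before adjustment 2 passed 0.05 for LMNA, 2 for LMNB1 and 5 for LMNB2 (edgeR), beside 5.46%, 5.51% and 19.9% of all features. Those lowest in p were RN7SL3 and RN7SL2 in LMNB2, the RNA of the signal recognition particle, at 0.62 ± 0.19 and 0.60 ± 0.20 (edgeR adjusted p of 0.0882 and 0.113). In LMNA they were RN7SL1 (0.48 ± 0.21) and RN7SL2 (0.43 ± 0.20), and in LMNB1 RNU6-7 (-0.73 ± 0.28) and a neighbouring RNU6-1 copy (-0.60 ± 0.28), U6 spliceosomal RNAs. All of these have near-identical copies that can share reads. The list's median log2 fold change was 0.15, -0.16 and -0.02 in LMNA, LMNB1 and LMNB2.

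In ATAC-seq 0 of the 21 windows were called, with 2, 0 and 3 at an unadjusted p under 0.05 (edgeR). The lowest p-values were at RNU6-9 copies in LMNA (0.29 ± 0.13 and 0.18 ± 0.08), at RNY5 (-0.28 ± 0.16) and RNY1 (0.24 ± 0.15) in LMNB1, and at an RNU6-1 copy (-0.52 ± 0.15) and RNY3 (-0.48 ± 0.14) in LMNB2. Nuclear tRNA genes share the internal promoter type of the vault RNAs. Of 462 tested in small RNA, 0 were called in LMNA, 0 in LMNB1 and 3 in LMNB2, all lower, where 0%, 0.0384% and 2.66% of all features were called in either direction. The tRNA medians were 0.14, 0.07 and -0.20, beside the vault RNA medians of -0.04, 0.12 and -0.31. Of 481 tRNA windows in ATAC-seq 0 were called in any lamin, with medians of 0.04, 0.03 and -0.09.

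The features whose small RNA log2 CPM followed each vault RNA most closely over the 12 libraries were sought among 2691 abundant features that are not lncRNA. For VTRNA1-1 they were SNORA15B-1 (Pearson's r of 0.93, Spearman's rho of 0.93), a Y RNA-related feature on chromosome 1 (0.91 and 0.90) and tRNA-Cys-GCA-14-1 (0.91 and 0.94). For VTRNA1-2 they were tRNA-Cys-GCA-2-2 (0.95 and 0.92) and the mitochondrial tRNAs MT-TH (0.93 and 0.92) and MT-TS2 (0.93 and 0.92). For VTRNA1-3 they were 3 features of the U2 family on chromosomes 2, 1 and 9, with r of 0.89 to 0.90 and rho of 0.68 to 0.74. For VTRNA2-1 the closest was SNORD72, a C/D box small nucleolar RNA on chromosome 5 (0.91 and 0.90), and the next were SRP-related intervals that contain SNORD72 and its reads. The same libraries, depths and scaling factors enter both sides of each value, which is a description of these 12 libraries. The 4 vault RNAs shared none of these features with each other, but such short lists do not show that they varied separately. Between pairs of the 4, which were not candidates, Pearson's r ran from 0.25 (VTRNA1-3 with VTRNA2-1) to 0.71 (VTRNA1-2 with VTRNA2-1). Pairs within the VTRNA1 cluster had r of 0.57 to 0.69.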

How the data were processed

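The authors deposited raw counts, a table per assay: small RNA counts per annotated feature, and ATAC counts per window on each feature and in its flanks. Reads were placed on GRCh38, per the submitters' processing notes. The aligner, counting tool, use of strand and treatment of multiply mapping or duplicate reads and of transposase offsets are not given in the sources used here and could shift levels of similar or overlapping genes. RefSeq (GRCh38.p14) gave positions and sequence.

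Groups came from the sample titles. In each assay the 12 libraries were fitted together over all features (33893 small RNA features and 163786 ATAC windows after filterByExpr) with edgeR 4.0.16 in R 4.3.3, with TMM scaling, robust quasi-likelihood tests and a prior count of 2. The biological coefficients of variation were 0.227 and 0.085. The p-values were adjusted over all features by the Benjamini-Hochberg method, with calls at 0.05. Ratios within a library (0.5 added to counts) and window-to-flank ratios were tested by exact permutation of the libraries over the 4 groups (369600 arrangements). Alternatives included other scalings and filters, DESeq2 1.42.0, a replicate block and leaving out each library. On data simulated for LMNB2 against GFP over 32095 features, edgeR called 42 of 100 features changed 2-fold and 96 of 100 changed 4-fold. It also called 8 unchanged features. The simulation gave all features the same spread, slightly below the fitted one, and libraries of like composition. These shares are therefore not the power of the real comparison.

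All 4 members were named. From the Pol III list, calls or otherwise the 2 lowest p-values per comparison were named, and for likeness the 3 highest Pearson's r per member. Members and lists were chosen with earlier results of these data known. The 3 replicates per group limit precision, and intervals cover the spread between libraries.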

Additional observations from a re-analysis of the deposited data

Results flagged for a closer look

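Among the small RNA features typed as vault RNA that entered no comparison, 2 held more than 3 counts in every library. The feature over VTRNA3-1P on chromosome X had a median of 40 counts per library, from 24 to 142, with 32, 30 and 142 in the GFP libraries. The feature ENSG00000198785.5 on chromosome 9, an interval from 101569328 to 101738605 that RefSeq places over GRIN3A, had a median of 13 counts, from 10 to 90, with 11, 11 and 90 in GFP. In both the highest value was that of GFP replicate 3.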

How the results depend on the processing

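The 8 counts of vault RNA genes called were 0 in the main fit of each assay. They stayed 0 in 164 of 168 alternative values, where each alternative fit gave several of these values. The 4 exceptions all fell in the small RNA comparison of LMNB2 with GFP, for which 20 alternatives were run. The exceptions were the LMNB2 small RNA comparison with no count filter and with DESeq2, where the count was 1, and the fits that left out a library, where it ranged from 0 to 1, being 1 without GFP replicate 1 or GFP replicate 3. The gene was VTRNA2-1 each time. Of 504 alternative log2 fold changes of single genes 500 kept their side of the threshold. The other 4 were those of VTRNA2-1 in the small RNA comparison of LMNB2 with GFP. The adjusted p of the small RNA ratios to VTRNA2-1 stayed above 0.05 in 45 of 45 alternatives and that of window over flank in 60 of 60. Leaving out each library, the adjusted p of the ATAC ratio of VTRNA1-2 to VTRNA2-1 ran from 0.0477 to 0.495. Same-numbered libraries of different groups did not deviate together (correlations of -0.04 to 0.23 in small RNA and -0.08 to 0.19 in ATAC), so numbers were not taken as pairs. With the replicate block the VTRNA2-1 adjusted p in LMNB2 was 0.0748, and 0 of 4 genes were called in either assay.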
